A study of Drosophila melanogaster with 12 samples.

Results

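The genes described here encode the core of Polycomb repressive complex 1 (PRC1) in Drosophila melanogaster: ph-p, ph-d, Pc, Psc, Su(z)2, Sce and Scm. They were taken by symbol from the table of fragment counts, where all 7 are among 17768 gene entries, and from the table of chromatin summits, where 7 of 352 summits are assigned to 3 of them (ph-p, ph-d and Scm). The RNA comparison used ovaries of 2-day-old females in which nanos-Gal4 drove a UAS hairpin, either against Sfmbt (Sfmbt RNAi-1, line TRiP.HMS00473) or against mCherry, a fluorescent protein that flies do not make. Both groups therefore carried the driver and a hairpin, with 3 biological replicates each. The driver is active in germ cells, while whole ovaries were sequenced, so follicle cells and other somatic cells without the hairpin contribute to every value. In such bulk samples, fewer cells of a type and less RNA per cell cannot be told apart. Binding was mapped by ChIP-seq in whole fixed ovaries of the same age. Pho was precipitated from yw ovaries with anti-Pho, and Sfmbt from ovaries of a GFP-Sfmbt knock-in with anti-GFP, for which untagged Oregon-R ovaries served as control. Each of these 3 groups had 2 biological replicates, and the table gives 1 value per summit and group.

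PRC1 keeps developmental genes silent by compacting chromatin and by ubiquitinating histone H2A. Pc is the chromodomain subunit that reads the methyl mark laid on histone H3 by Polycomb repressive complex 2 (PRC2). Sce is the RING subunit that carries the ubiquitin ligase activity, and Psc and Su(z)2 are related RING proteins that partner with it and compact nucleosomes. ph-p and ph-d are tandem copies for Polyhomeotic, whose SAM domain polymerises. Scm carries a SAM domain as well and can link Polyhomeotic to Sfmbt, which together with the DNA-binding protein Pho forms the recruiting complex PhoRC. In the ovary, Polycomb proteins act both in germ cells and in the somatic follicle cells.

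Of the 7 PRC1 genes 1, ph-p, was called by edgeR's quasi-likelihood test (adjusted p under 0.05), against 34.7% of the 9667 genes tested. It was higher in Sfmbt RNAi, where 15.2% of tested genes were called higher. At an unadjusted p under 0.05 edgeR gave 3 members higher and 0 lower, where 20.3% of all tested genes were higher. DESeq2 gave the same 3 and 0 at an adjusted p of 0.05, where it called 18.8% of all tested genes higher. The median log2 fold change of the 7 was 0.06, and that of all tested genes −0.04. In 4 of the 7 the libraries of the groups did not overlap, a separation found in 50.3% of all tested genes. In 3 of them, ph-p, ph-d and Su(z)2, the Sfmbt RNAi libraries were the higher ones, which held for 22.6% of all tested genes. All 7 members passed the filter on low counts.

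ph-p (FBgn0004861, X:2126210-2138371, minus strand, BDGP6.28 annotation) rose from the lowest counted level of the 7 genes to about that of its neighbour copy. The mCherry RNAi libraries held 319, 345 and 254 ph-p fragments in replicates 1 to 3, and the Sfmbt RNAi libraries 1367, 1196 and 1941. In CPM, counts scaled to library size with TMM factors, this was 6.63, 7.50 and 7.51 against 36.4, 32.9 and 36.1. The lowest Sfmbt RNAi library thus stood far above the highest control library, and the spread within each group was small. The fold was 4.87, with a log2 fold change of 2.28 ± 0.10 (SE, n = 3 against 3; 95% interval 2.06 to 2.51; edgeR adjusted p = 1.22e-05). By size of the rise ph-p ranked 253 of 9667 tested genes, and by p-value it ranked 32. The call was kept in each of 13 alternative analyses, with log2 fold changes of 2.20 to 2.33.

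**Figure D1:**
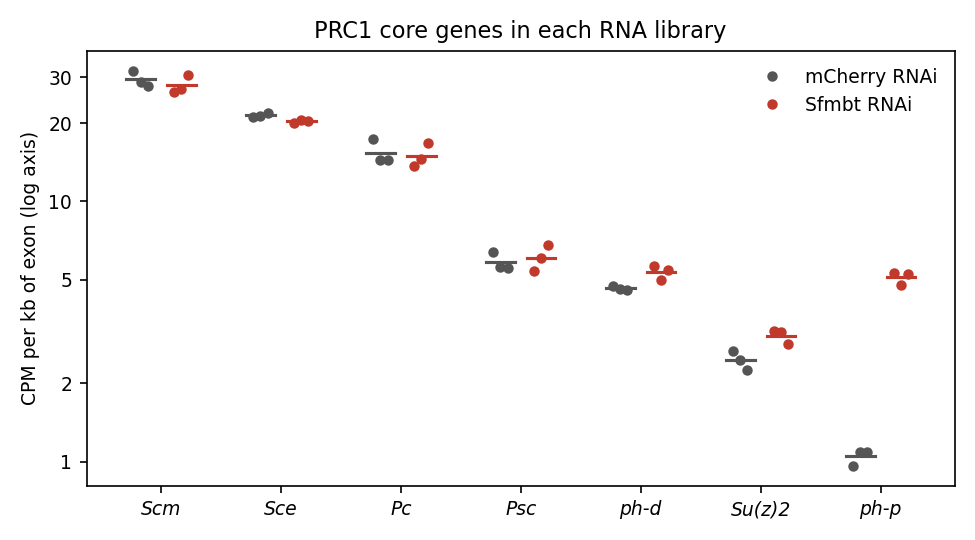
Levels of the 7 PRC1 genes in each RNA library, in CPM per kb of exon on a log axis; points are libraries, lines are group means. ph-p moves from the bottom of the plot, at a mean of 1.05, to 5.10, beside ph-d at 5.37.

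ph-d (FBgn0004860, X:2115727-2123286, minus strand), the other Polyhomeotic copy, differed far less between the groups. It had 29.1, 28.2 and 28.0 CPM in mCherry RNAi replicates 1 to 3 and 34.5, 30.6 and 33.5 CPM in Sfmbt RNAi replicates 1 to 3. The groups did not overlap, but the smallest gap, between 29.1 and 30.6 CPM, was narrow. The fold was 1.16 (log2 fold change 0.21 ± 0.07 SE, 95% interval 0.04 to 0.38, edgeR adjusted p = 0.0598), just outside the threshold. It passed under 4 of 13 alternatives, among them RLE scaling (edgeR adjusted p = 0.0410) and DESeq2 (adjusted p = 0.0327). With summed chorion gene expression as a covariate the estimate was 0.0019 ± 0.14 (SE) on the log2 scale (edgeR adjusted p = 0.997). That covariate itself differed between the groups and the standard error grew, so this fit cannot show whether the difference remains. The authors' deposited table lists ph-d with a log2 fold change of 0.32 and an adjusted p = 0.00199, and ph-p with 2.35 and an adjusted p = 6.72e-95.

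The 2 copies lie 2923 bases apart and are known to be highly similar in sequence. Fragments that map to several places were not set to be counted, so both levels come from the parts of each gene that are unique, and the share of fragments lost in this way was not tested. When their fragments were summed into 1 feature, the pair reached 35.7, 35.7 and 35.6 CPM in mCherry RNAi replicates 1 to 3 and 70.9, 63.5 and 69.7 CPM in Sfmbt RNAi replicates 1 to 3. The control libraries were nearly identical, and all 3 Sfmbt RNAi libraries were higher. The summed fragments assigned to either copy were 1.91-fold higher, which is 0.93 ± 0.07 (SE) on the log2 scale (edgeR adjusted p = 0.00016).

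The balance between the copies was compared inside each library, where scaling between libraries plays no part. Per kb of exon, ph-p made up 16.9%, 19.1% and 19.2% of the pair in mCherry RNAi replicates 1 to 3. In Sfmbt RNAi replicates 1 to 3 it made up 48.4%, 48.8% and 48.9%. The counted level of ph-d per kb was therefore 4.43 times that of ph-p in control ovaries and 1.05 times in Sfmbt RNAi. The length used is that of all exons, not of the unique parts, so these are not ratios of transcripts. The mean share went from 18.4% ± 1.34 to 48.7% ± 0.28 (SD, n = 3), a difference of 30.3 percentage points, higher in 3 of 3 libraries. The exact two-sided permutation test gave p = 0.1, the smallest that 3 against 3 libraries allow, and 0.2 after adjustment over the 2 shares compared.

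**Figure D2:**
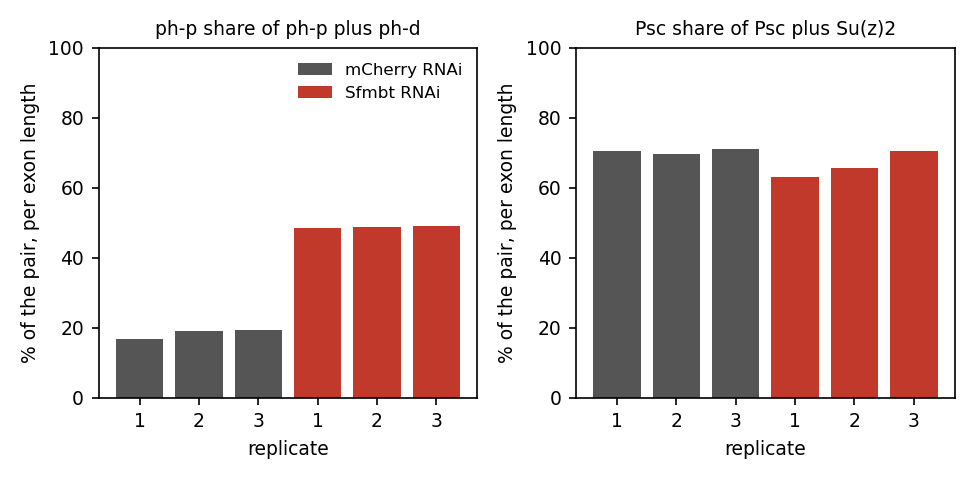
Share of each paralog pair held by 1 copy in each RNA library, in percent of the summed fragments per exon length. The ph-p share lies between 16.9% and 19.2% in the 3 control libraries and between 48.4% and 48.9% in the 3 Sfmbt RNAi libraries, while the Psc share lies between 63.0% and 71.1% throughout.

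The other paralog pair, Psc and Su(z)2, lies on chromosome arm 2R, 15506 bases apart and facing away from each other. Psc (FBgn0005624, 2R:12965997-12980994) had 40.4, 35.5 and 35.05 CPM in mCherry RNAi and 34.2, 38.3 and 42.9 CPM in Sfmbt RNAi. The groups overlapped over most of their range, with a fold of 1.04 (95% interval 0.881 to 1.23, edgeR adjusted p = 0.709). Su(z)2 (FBgn0265623, 2R:12996501-13007911) had 17.9, 16.5 and 15.1 CPM in mCherry RNAi and 21.3, 21.2 and 19.0 CPM in Sfmbt RNAi. Its groups did not overlap, and its fold of 1.24 (log2 fold change 0.31 ± 0.10 SE, 95% interval 0.07 to 0.55) missed the threshold narrowly (edgeR adjusted p = 0.0515). It passed under 5 of 13 alternatives, with DESeq2 giving the smallest adjusted p (0.0201). With the chorion covariate the log2 fold change was 0.23 ± 0.23 (SE, edgeR adjusted p = 0.729).

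Within this pair the shares overlapped between the groups. Psc held 70.6%, 69.6% and 71.1% of the pair in mCherry RNAi and 63.0%, 65.7% and 70.6% in Sfmbt RNAi. Replicates 1 and 2 of Sfmbt RNAi were below all controls, and replicate 3 lay among them. The mean difference was −3.99 percentage points (exact two-sided permutation p = 0.3). It was −6.07 without Sfmbt RNAi replicate 3 and −2.29 without Sfmbt RNAi replicate 1, so it rests on which of these libraries enters.

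For the remaining 3 subunits no change was detectable. Pc (FBgn0003042, 3L:21306138-21318020), the reader subunit, had 42.8, 35.4 and 35.6 CPM in mCherry RNAi and 33.6, 35.7 and 41.4 CPM in Sfmbt RNAi. Its groups overlapped almost wholly, with a fold of 0.973 (95% interval 0.813 to 1.16, edgeR adjusted p = 0.812). Sce (FBgn0003330, 3R:27680431-27682029), the ligase subunit, had 32.5, 32.8 and 33.8 CPM in mCherry RNAi and 30.8, 31.7 and 31.3 CPM in Sfmbt RNAi. These groups did not overlap, but the difference was small, at 0.948-fold (95% interval 0.858 to 1.05, edgeR adjusted p = 0.368). Scm (FBgn0003334, 3R:9633359-9637611), the link to Sfmbt, had 129.6, 117 and 113 CPM in mCherry RNAi and 107.5, 110.1 and 124.2 CPM in Sfmbt RNAi. The groups overlapped, and the fold was 0.951 (95% interval 0.826 to 1.09, edgeR adjusted p = 0.552). The intervals of Pc, Psc, Sce and Scm end at 1.16, 1.23, 1.05 and 1.09-fold, while that of ph-p starts at 4.16-fold.

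**Figure D3:**
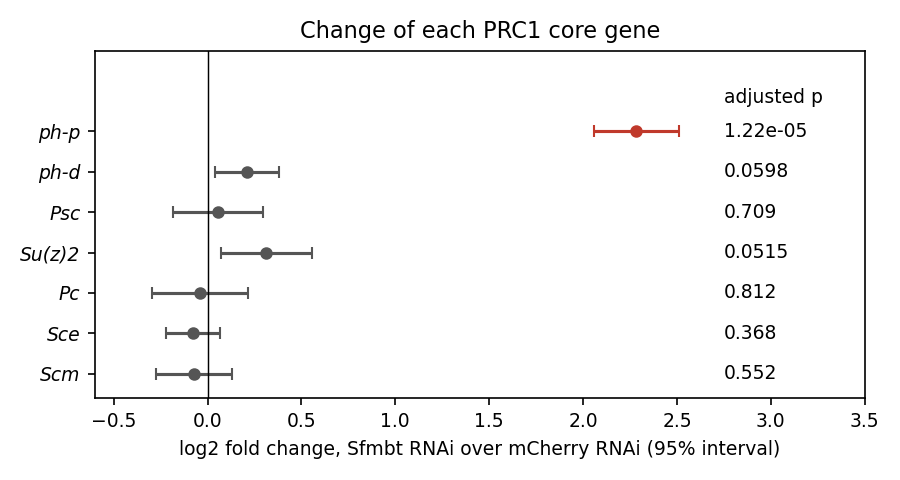
log2 fold change of each PRC1 gene in Sfmbt RNAi over mCherry RNAi with its 95% interval and edgeR adjusted p; red marks an adjusted p under 0.05. Only ph-p is red, and the other 6 lie between −0.08 and 0.31.

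Because the genes differ in length, their levels were ordered per kb of exon. For ph-p and ph-d this length also holds the parts that are not unique, so their places in the order may be too low. In control ovaries Scm was highest, at 29.5 ± 2.12 CPM per kb (SD, n = 3), followed by Sce at 21.4 ± 0.44 and Pc at 15.4 ± 1.71. Psc at 5.84 ± 0.47, ph-d at 4.64 ± 0.09, Su(z)2 at 2.45 ± 0.21 and ph-p at 1.05 ± 0.07 CPM per kb formed the lower part. No neighbours in this order overlapped between libraries. In Sfmbt RNAi the order of the upper 3 was the same, at 28.0, 20.3 and 15.0 CPM per kb. Psc at 6.07 ± 0.69, ph-d at 5.37 ± 0.33 and ph-p at 5.10 ± 0.29 CPM per kb then overlapped with their neighbours in the order, and Su(z)2 came last at 3.05 ± 0.20. Among all tested genes, 17.2% had a lower level per length than ph-p in control ovaries and 32.0% in Sfmbt RNAi.

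The chromatin table was read next for summits of Pho and GFP-Sfmbt at these genes; its values are the authors' own, in RPM, read counts scaled to sequencing depth. The ph locus carried 6 of the 7 member summits. For ph-p, 1 summit (X:2136936) lay inside the gene, 1435 bases downstream of its outer start, with 9.03 RPM for Pho, 1.99 for GFP-Sfmbt and 0.210 for untagged chromatin. This was the strongest of the member summits for both proteins, above 78.7% of the list for Pho and 84.9% for GFP-Sfmbt. The other ph-p summits flanked the start, 192 bases downstream (X:2138179; 2.89 RPM Pho, 1.53 GFP-Sfmbt, 0.756 untagged) and 302 bases upstream (X:2138673; 4.01 RPM Pho, 1.34 GFP-Sfmbt, 0.378 untagged). The outer start is the outermost annotated exon end, and other start sites of these genes were not separated.

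The 3 ph-d summits all lay in the stretch between the copies. The nearest (X:2123361) was 75 bases upstream of the ph-d start, with 5.90 RPM for Pho, 1.24 for GFP-Sfmbt and 0.210 for untagged chromatin. The next (X:2124355) lay 1069 bases upstream, with 4.01, 1.15 and 0.252 RPM in the same order. The farthest (X:2125700) lay 2414 bases upstream and 510 bases beyond the far end of ph-p, with 7.02, 1.65 and 0.462 RPM. Both copies thus carried summits of similar strength: 2.89 to 9.03 RPM Pho at ph-p and 4.01 to 7.02 at ph-d, and 1.34 to 1.99 RPM GFP-Sfmbt at ph-p and 1.15 to 1.65 at ph-d. A further summit (X:2140647), assigned to the divergent neighbour D2hgdh, lay 2276 bases upstream of the ph-p start, with 3.76 RPM Pho, 1.05 GFP-Sfmbt and 0.126 untagged.

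**Figure D4:**
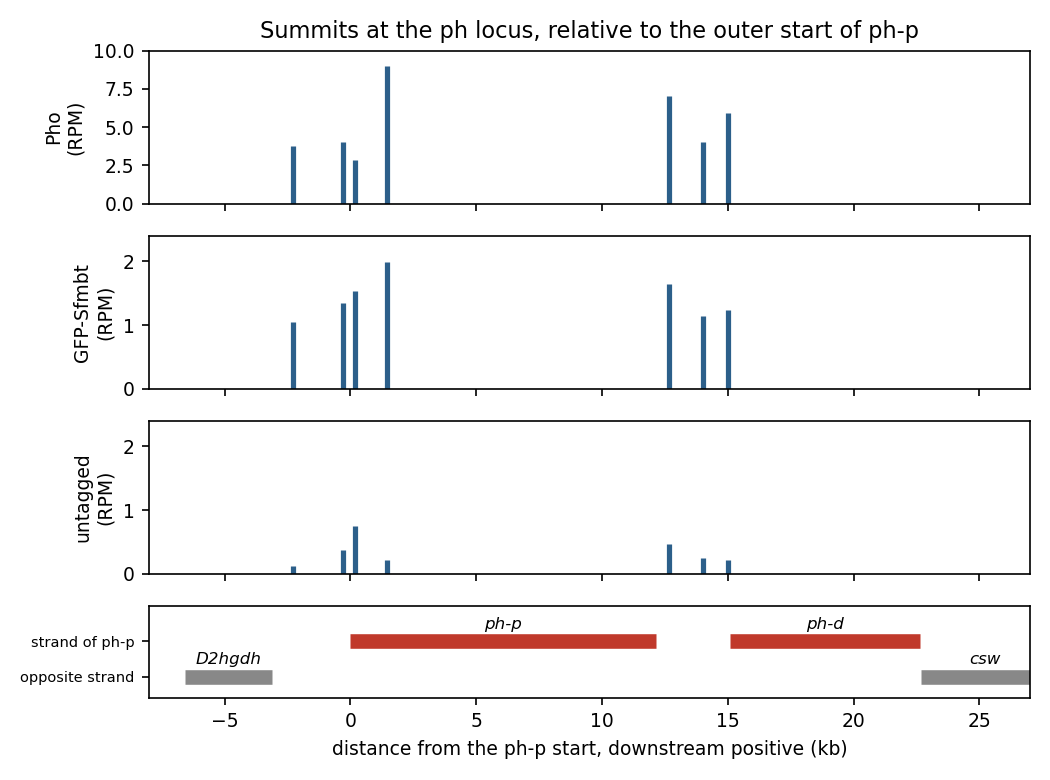
RPM of Pho, GFP-Sfmbt and untagged chromatin at each summit near the ph genes, by distance from the outer start of ph-p in kb, with gene bodies below; each line is 1 summit. The summits form 1 group around the ph-p start and 1 between ph-p and ph-d, and the GFP-Sfmbt value is above the untagged one at each.

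GFP-Sfmbt over untagged ranged from 2.02 to 9.46 at the 6 ph summits, where the median over the list was 2.73. Untagged values there rest on 5 to 18 steps of the smallest RPM unit of that column, so these ratios are coarse. The 1 summit at Scm (3R:9634950), inside the gene and 2661 bases downstream of its start, differed: it had 4.01 RPM for Pho, but 0.336 for GFP-Sfmbt against 0.378 for untagged chromatin, a ratio of 0.890. Its GFP-Sfmbt value was above only 1.42% of the list, and 21 of the 352 summits had a ratio of 1 or less. No summit in the table used here was assigned to Pc, Psc, Su(z)2 or Sce. The summit closest to Psc and Su(z)2 (2R:12991237) lay between them, 5264 bases upstream of Su(z)2, with 1.38 RPM Pho, 0.474 GFP-Sfmbt and 0.126 untagged, and was assigned to CG33798.

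Genes with 3 or more summits, as ph-p and ph-d have, were 10 of the 289 genes with any summit. Of these 10, 7 passed the filter on low counts, and 2 rose, ph-p included. Of the 289, 221 were tested, with 38 higher (17.2%) and 37 lower (16.7%) at an edgeR adjusted p under 0.05. These shares lie close to the 15.2% and 19.4% of all tested genes. Among the 221, ph-p had the 12th largest log2 fold change. Their median log2 fold change was 0.03, and that of all tested genes −0.04.

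The genes around the ph locus were examined for a change that extends beyond ph-p. Of 6 neighbours of the pair 5 were tested: 1 rose, 1 fell and 3 did not pass. Among all tested genes 15.2% were called higher and 19.4% lower. D2hgdh, upstream of ph-p on the opposite strand, had 18.0 ± 3.85 CPM in mCherry RNAi and 16.4 ± 5.89 in Sfmbt RNAi (SD, n = 3; edgeR adjusted p = 0.751). Pgd, a pentose phosphate pathway enzyme gene, stood at 125 ± 6.27 and 116 ± 8.37 CPM (edgeR adjusted p = 0.300), and Unc-76 at 60.7 ± 2.19 and 59.0 ± 8.66 CPM (edgeR adjusted p = 0.808). csw, a phosphatase gene that ends 26 bases from the end of ph-d, fell from 149 ± 2.15 to 126 ± 8.66 CPM (log2 fold change −0.24, edgeR adjusted p = 0.0382). That call was lost without any 1 of 5 libraries (0.0751 to 0.183), the exception being Sfmbt RNAi replicate 3. With all libraries, the csw call was lost with the replicate block (0.0702), RLE scaling (0.0866) and no filter (0.0542). bcn92 rose 1.41-fold, from 21.8 ± 2.31 to 30.8 ± 3.24 CPM (edgeR adjusted p = 0.0140), but did not pass when mCherry RNAi replicate 2 (0.0649) or 3 (0.0617) was left out. With the chorion covariate the log2 fold change of csw was −0.10 ± 0.15 and that of bcn92 0.05 ± 0.17 (SE, edgeR adjusted p = 0.836 and 0.939). None of these 5 had a log2 fold change above 0.50, against 2.28 for ph-p.

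Around all 7 members, the ph pair included, there were 34 neighbours, of which 19 were tested, with 1 higher (5.26%), 6 lower (31.6%) and 12 not called (median log2 fold change −0.33), beside 15.2% higher and 19.4% lower among all tested genes. The count of 6 is not stable: it was 2 without mCherry RNAi replicate 2, 3 without mCherry RNAi replicate 3 or Sfmbt RNAi replicate 1 or 2, 4 without Sfmbt RNAi replicate 3 and 8 without mCherry RNAi replicate 1. With all libraries it was 3 with RLE scaling, 4 with upper-quartile scaling or the replicate block and 8 with DESeq2. It was 5 with no filter (30 tested) and 5 with 1 CPM in 3 libraries (16 tested). Fitting the chorion covariate in edgeR gave a count of 0, with 2 neighbours lower at an unadjusted p under 0.05. Beside csw, the lower calls of CG11309 next to Pc and CG12880 next to Sce were each lost in 5 of the 6 analyses that leave out 1 library, and that of CG12883 next to Sce without mCherry RNAi replicate 2 (edgeR adjusted p = 0.0544). RLE and upper-quartile scaling also ended the calls of CG11309 (edgeR adjusted p = 0.0622 and 0.0944) and CG12880 (0.0510 and 0.0755). CG12880 was not called with 1 CPM in 3 libraries either (0.0532). Next to Sce, Hsdl2 fell from 184 ± 9.45 to 104 ± 7.30 CPM (log2 fold change −0.83, edgeR adjusted p = 0.000513), 1418 bases from a gene that itself did not pass. CG7632, which overlaps the end of Pc on the opposite strand, fell from 25.5 ± 0.80 to 19.5 ± 0.22 CPM (log2 fold change −0.39, edgeR adjusted p = 0.00749). Both calls were kept in each analysis that left out 1 library. With the chorion covariate the log2 fold changes were −0.60 ± 0.15 for Hsdl2 and −0.38 ± 0.16 for CG7632 (SE), and neither passed (edgeR adjusted p = 0.155 and 0.385).

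**Figure D5:**
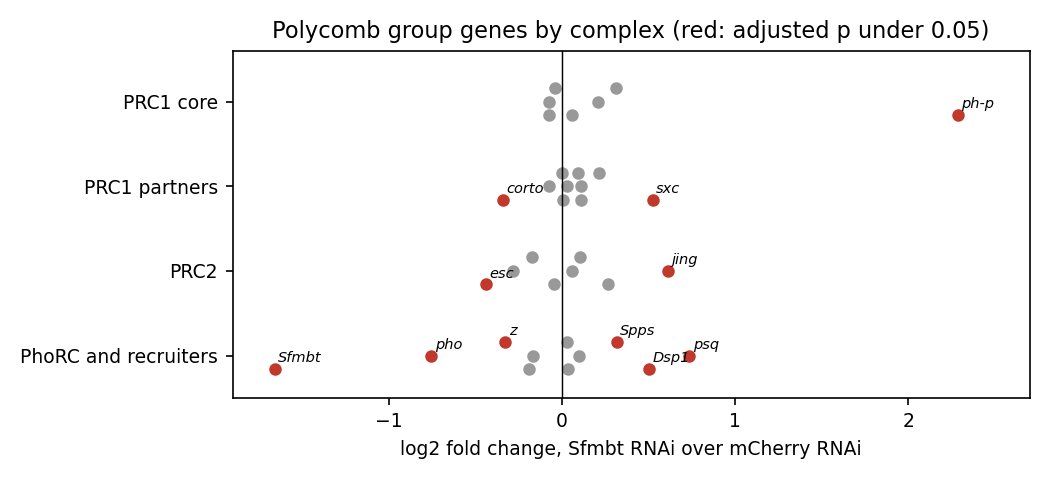
log2 fold changes of tested Polycomb group genes by complex; each point is a gene, red marks an edgeR adjusted p under 0.05, and vertical offsets only separate points. On the upper side ph-p at 2.28 lies apart from the other genes plotted, which end at 0.74 (psq). On the lower side the RNAi target Sfmbt lies at −1.66.

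Other genes that work with PRC1 were read from lists, whose counts stand against 15.2% higher and 19.4% lower among all tested genes. Among 10 PRC1 partners and related genes 1 rose, 1 fell and 8 did not pass (median log2 fold change 0.06). sxc, which encodes the O-GlcNAc transferase that modifies Polyhomeotic, rose from 177 ± 10.6 to 254 ± 18.2 CPM (log2 fold change 0.52, edgeR adjusted p = 0.00399). corto, a chromodomain protein gene, fell from 146.5 ± 9.11 to 115.8 ± 10.6 CPM (edgeR adjusted p = 0.0244). Leaving out 1 library ended that call for mCherry RNAi replicates 1 and 3 and for Sfmbt RNAi replicates 1 and 2 (0.0554 to 0.0909), and so did the replicate block (0.0556). The genes of variant PRC1 subunits did not pass: l(3)73Ah, for a RING protein related to Psc, stood at 69.3 ± 5.81 and 69.7 ± 3.44 CPM (edgeR adjusted p = 0.954), RYBP at 57.2 ± 5.98 and 66.4 ± 4.99 CPM (0.125) and the demethylase gene Kdm2 at 79.04 ± 3.90 and 78.98 ± 1.29 CPM (0.990). Asx and caly, whose products together remove ubiquitin from histone H2A, had log2 fold changes of 0.03 (0.759) and 0.09 (0.464).

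Among 8 PRC2 genes 1 rose, 1 fell and 6 did not pass (median log2 fold change 0.00). esc fell from 40.3 ± 1.69 to 29.7 ± 0.89 CPM (edgeR adjusted p = 0.00308) and jing, a zinc finger gene, rose from 65.2 ± 9.56 to 99.5 ± 6.38 CPM (edgeR adjusted p = 0.00704). The methyltransferase gene E(z) stood at 64.6 ± 1.65 and 57.4 ± 2.94 CPM (edgeR adjusted p = 0.0803). Among 12 PhoRC and other DNA-binding recruiter genes 11 were tested, of which 3 rose (27.3%), 3 fell (27.3%, the RNAi target among them) and 5 did not pass (median 0.03). Those that fell were the RNAi target Sfmbt, at 146.1, 122.4 and 123.2 CPM in mCherry RNAi and 43.8, 43.8 and 36.7 CPM in Sfmbt RNAi, and pho (226 ± 28.7 to 134 ± 9.95 CPM, edgeR adjusted p = 0.00271) and z (66.2 ± 3.77 to 52.8 ± 1.22 CPM, 0.00972). Those that rose were psq (log2 fold change 0.74), Dsp1 (0.50) and Spps (0.32), with edgeR adjusted p values of 0.00404, 0.0220 and 0.0360. Dsp1 lost its call without any 1 mCherry RNAi library (0.0515 to 0.0778). Spps lost its call without replicate 2 or replicate 3 of either group (0.0897 to 0.141), with the replicate block (0.0892) and with no filter (0.0528). With the chorion covariate, of the called genes of these 3 lists only Sfmbt kept its call, while the standard errors of the others grew. The log2 fold changes of esc (−0.43), z (−0.34) and Spps (0.39) were then about as large as without it or larger, and those of pho (−0.43), jing (0.33), psq (0.28), sxc (0.23), corto (−0.18) and Dsp1 (0.09) were smaller.

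The tested genes whose profile over the 6 RNA libraries was most like that of ph-p, by root mean square difference of centred log2 CPM, were rst (0.11), CG18605 (0.13), sli (0.13), kirre (0.15) and RhoGAP100F (0.16). This measure picks genes with a similar difference between the groups, so their changes are part of the selection. rst, a cell adhesion gene on X, went from 7.0 to 34.6 CPM, and its relative kirre from 3.40 to 16.9 CPM. sli, an axon guidance ligand gene, went from 6.30 to 35.2 CPM. The genes closest to ph-d were CG31638 (0.01), Bdp1 and Mettl4 (both 0.02), Pdp (0.02) and PolrMT (0.02).

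Some markers of cell types in and around the ovary differed between the groups as well. Their counts stand against 15.2% higher and 19.4% lower among all tested genes. All 9 chorion genes, made by late follicle cells, fell, and their summed level was 35271 to 50570 CPM in mCherry RNAi and 7547 to 20193 CPM in Sfmbt RNAi. Of 7 germline markers 4 rose (vas, aub, orb and grk) and 1 fell (bcd), with summed levels of 1054 to 1328 CPM and 1528 to 1796 CPM. Of 9 tested follicle and other somatic markers 1 rose and 1 fell, with summed levels of 271 to 335 and 283 to 395 CPM. Gut genes summed to 110.5 to 1181 CPM in mCherry RNAi and 0.373 to 76.8 CPM in Sfmbt RNAi, but 0 of the 5 tested were called (edgeR adjusted p = 0.0865 to 0.282; 3 had an unadjusted p under 0.05), and 1 of the 7 had no fragment in any library. Muscle sheath, hemocyte and fat body sums overlapped between groups, at 598 to 798 against 326 to 986 CPM, 6.30 to 10.7 against 5.03 to 16.9 CPM and 275 to 612 against 147 to 708 CPM. With the chorion level as a covariate the ph-p estimate was 2.20 ± 0.20 (SE) on the log2 scale (edgeR adjusted p = 0.00815). That covariate itself differed between the groups without overlap, so this fit cannot separate the ph-p difference from that of the chorion level. The part of the other marker lists in the PRC1 values was not tested.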

How the data were processed

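Fragment counts per gene were made by the authors with featureCounts 1.6.3 (reverse-stranded pairs, both ends mapped, BDGP6.28 annotation), per the file headers, on STAR 2.7.2a alignments, per the submitters' processing notes. The count columns carry a letter and a number. C was read as the control, the word the authors use for mCherry RNAi, and A as Sfmbt RNAi by elimination. As a check, the log2 fold changes of this reading and of the authors' deposited table had Pearson's r = 0.993 across 221 genes with a summit, and all 93 genes that the authors' adjusted p-value calls had the same sign. Totals were 34057506 to 51297961 fragments per library. The deposited summit table gives RPM per summit and ChIP group, rank scores, the authors' log2 fold change and adjusted p-value, and mean TPM of each RNA group as the authors computed it, which was not used further. The sources used here do not give its peak caller, the window of its RPM or any pooling of replicates. Each RPM column holds whole multiples of 1 step within 0.01 step.

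Of 17768 gene IDs 17671 were matched to a symbol. Sfmbt RNAi was tested against mCherry RNAi in R 4.3.3 by edgeR 4.0.16, using its filterByExpr function (minimum count 10), TMM scaling, a robust quasi-likelihood fit and F-test, group as the only term, Benjamini-Hochberg adjustment over 9667 genes at 0.05. Standard errors were derived from the F statistic. The fit was tested on simulated data. Shares of paralog pairs were compared by exact permutation. Alternatives were RLE and upper-quartile scaling, DESeq2 1.42.0, no filter, 1 CPM in 3 libraries, a replicate block, a chorion covariate, each library left out, and summed ph counts; for named genes outside the complex these were added after the data were seen. Replicates differed by more than sampling noise, with a chi-square per gene of at least 26.8. The members, gene lists and markers were chosen with earlier results of these data known. Named genes were all members, called or defining genes of the lists, the 3 nearest genes on each side of a member and the 5 genes most like ph-p or ph-d. One written germline marker was not matched.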

Additional observations from a re-analysis of the deposited data

How the results depend on the processing

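ph-p was called as higher under every alternative run. The number of genes called was 3350 (1470 higher, 1880 lower). It was 118 with the chorion covariate, which itself differed between groups, and 1756 to 3295 with 1 library left out, where it was lowest without mCherry RNAi replicate 2 (1756) and replicate 3 (1931). With upper-quartile scaling the split was 1900 higher and 1615 lower. ph-d passed with RLE scaling (log2 fold change 0.24), upper-quartile scaling (0.26), DESeq2 (0.24) and a filter of 1 CPM in 3 libraries (0.22). The summed pair passed at 0.93, but that sum holds the rise of ph-p and is no test of ph-d. Su(z)2 passed with RLE scaling (0.34), upper-quartile scaling (0.37), DESeq2 (0.34) and 1 CPM in 3 libraries (0.33), and without Sfmbt RNAi replicate 3 (0.37); leaving out 1 library gave 0.25 to 0.37 (edgeR adjusted p = 0.0453 to 0.179). Signs turned in genes that were never called: Pc with upper-quartile scaling (0.010) and with 1 library left out (−0.13 to 0.063), Psc with 1 library left out (−0.026 to 0.17) and Scm likewise (−0.14 to 0.0064). The causes were not tested. For numbers 1, 2 and 3 the deviations of same-numbered libraries had Pearson's r of 0.43, 0.30 and 0.07, and not every library correlated best with its own number, so the numbers were not taken as pairs. With the replicate block 2959 genes were called, ph-p stood at 2.28 on the log2 scale (edgeR adjusted p = 0.00116), and no call among the 7 PRC1 genes changed; among the named genes outside the complex it ended those of csw, CG11309, CG12880, corto and Spps. Of the 7 member summits 6 lay in the stronger part of the list by the mean of the Pho and GFP-Sfmbt ranks, and 8 summits lay within 5000 bases of a member. For Pho alone the list median was 4.52 RPM. The member summits at 4.01 and 2.89 RPM lay below it, and those at 5.90, 7.02 and 9.03 RPM above it. Depth of 254 to 345 ph-p fragments per control library limits its control level.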
